A study of Homo sapiens with 32 samples.

Results

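The genes described here are 10 members of the BCL2 family chosen as lying outside its direct p53 targets, namely BCL2, BCL2L1, BCL2L2, MCL1, BAK1, BID, BCL2L11, BIK, BMF and BAD. Whether p53 acts on any of them was not tested. They were taken by symbol, as 10 of the 60107 genes in the count table; the rule uses no measured value, but it was set with earlier results of these data known. Their transcripts were counted by QuantSeq 3′ mRNA sequencing, which reads 1 tag near the 3′ end of each transcript, in 32 libraries of U2OS and HEK293T cells. U2OS is an osteosarcoma line, and HEK293T is an embryonic kidney line that carries the SV40 large T antigen. The study asked how topoisomerase poisoning and loss of ATM, a kinase of the DNA damage response, shift protein homeostasis. Camptothecin (CPT) traps topoisomerase I on DNA, and DMSO is its vehicle.

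The libraries form 8 sets of 4. U2OS cells given CPT are libraries 26 to 29 and U2OS cells given DMSO are libraries 30 to 33. HEK293T libraries 22 to 25 received DMSO. Libraries 18 to 21 carry the label HEK293T ATM KO. The study reports RNA sequencing of HEK293T with an ATM inhibitor, and its ATM KO lines were made in U2OS and HEK293. These libraries are therefore called the ATM-inhibited HEK293T libraries here, against their label, which the deposited files do not correct. For libraries 1 to 17 the selection of columns departs from the labels: even-numbered libraries 10 to 16 are labelled U2OS ATM KO and were taken as HEK293T with CPT, and even-numbered libraries 2 to 8 are labelled HEK293T with CPT and were taken as U2OS ATM KO. Among their references, libraries 11, 13 and 15 are labelled U2OS WT and library 17 HEK293T DMSO, while library 1 is labelled U2OS WT and libraries 3, 5 and 7 HEK293T DMSO. These 4 sets are named by library number, and each difference between them is given as one between libraries, since treatment and genotype rest on a regrouping that the labels contradict. Per the labels HEK293T cells had 24 h of treatment and 48 h of recovery and U2OS cells 72 h of untreated growth, and no label gives a time for CPT in U2OS. The methods of the study give the same 24 h and 48 h for drug treatments in general. The ATM KO cells of the study came from picked clones made with CRISPR/Cas9.

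The 32 libraries held 1232674 to 6362433 counts on genes. Levels are given as CPM, the count on a gene scaled to 1000000 counts on genes in each library, and a floor of 3 counts equaled 0.472 to 2.43 CPM. Libraries 1 to 8 correlated more closely with the U2OS DMSO libraries (Pearson r of log2(CPM + 1) over 15404 genes 0.943 to 0.975) than with HEK293T DMSO (0.753 to 0.775). Libraries 10 to 17 correlated more closely with HEK293T DMSO (0.941 to 0.976) than with U2OS DMSO (0.751 to 0.770). All 8 U2OS markers separated both the labelled DMSO libraries and libraries 1 to 8 from 10 to 17, and their summed level was 3599 to 5625 CPM in libraries 1 to 8 and 62.1 to 239 CPM in 10 to 17. The HEK293T marker list failed as a set, since 3 of its 8 genes separated the labelled lines and 2 of 8 the regrouped ones. NEFL, BEX1 and EPCAM went the other way, averaging 165, 94.7 and 34.5 CPM in U2OS DMSO against 69.5, 6.91 and 3.55 CPM in HEK293T DMSO. The summed list stood at 301 to 322 CPM in U2OS DMSO and 218 to 305 CPM in HEK293T DMSO. It was 165 to 314 CPM in libraries 1 to 8 and 315 to 558 CPM in 10 to 17. These values bear on the cell line only, and not on treatment or genotype. The summed U2OS markers also stood at 4651 to 5215 CPM with CPT against 2698 to 3087 with DMSO in the labelled U2OS libraries, and their part in any result below was not tested.

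ATM, the targeted gene, was read in every library. Its level was 61.7, 52.9, 54.7 and 34.2 CPM in even-numbered libraries 2 to 8 and 57.2, 68.4, 53.4 and 63.5 CPM in odd-numbered libraries 1 to 7 (log2 fold change -0.31, SE 0.17, adjusted p = 0.255). It was 39.8, 39.5, 32 and 28.8 CPM in even-numbered libraries 10 to 16 and 26.6, 21.2, 34.2 and 36.3 CPM in odd-numbered libraries 11 to 17. In the ATM-inhibited HEK293T libraries ATM stood at 54.5, 55.7, 74.1 and 64.4 CPM, beside 72.4, 82.0, 58.9 and 57.8 CPM with DMSO. The U2OS libraries held 63.3 to 85.5 CPM with CPT and 55.0 to 87.7 CPM with DMSO. The sets of each comparison above overlapped. Between odd-numbered libraries 1 to 7 and 11 to 17 ATM did not overlap (log2 fold change 1.40, SE 0.15, adjusted p = 6.33e-10 by edgeR). The labelled DMSO lines overlapped (0.32, SE 0.13, adjusted p = 0.0366 by edgeR). Libraries 10 to 17, at 21.2 to 39.8 CPM, all lay below HEK293T DMSO libraries 22 to 25, at 57.8 to 82.0 CPM, and the cause was not tested. A 3′ tag need not lie in the edited part of the gene, so ATM settles neither the labels nor the regrouping.

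The BCL2 family decides whether the outer mitochondrial membrane is opened during apoptosis. BAK1, like its relative BAX, forms the pores that release cytochrome c, and the antiapoptotic proteins BCL2, BCL-XL (the product of BCL2L1), BCL-W (of BCL2L2) and MCL1 hold it in check. The BH3-only proteins, here BID, BIM (of BCL2L11), BIK, BMF and BAD, engage the antiapoptotic proteins, and some of them activate the pore formers directly.

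The start regions of the 3 members with the largest differences after CPT in U2OS are shown because 2 of them, BMF and BCL2L11, were lower together while BCL2L1 was higher. Each runs from 250 bases before to 50 bases after a transcription start in RefSeq (GRCh38.p14), 5′ to 3′ on the strand of the gene, and capitals mark GGGCGG (the GC box) or GTAAACA (a forkhead box O motif) on either strand. Of the 10 members 7 had an entry, in 14 such windows. The BCL2L11 window lies at chr2:111120664-111120963 on the plus strand, BMF has windows at chr15:40108830-40109129 and chr15:40106917-40107216 on the minus strand, and the BCL2L1 window shown, the downstream one of 2, is chr20:31722819-31723118 on the minus strand. The other BCL2L1 window, chr20:31723914-31724213, held 52% G or C bases and neither motif.
BCL2L11: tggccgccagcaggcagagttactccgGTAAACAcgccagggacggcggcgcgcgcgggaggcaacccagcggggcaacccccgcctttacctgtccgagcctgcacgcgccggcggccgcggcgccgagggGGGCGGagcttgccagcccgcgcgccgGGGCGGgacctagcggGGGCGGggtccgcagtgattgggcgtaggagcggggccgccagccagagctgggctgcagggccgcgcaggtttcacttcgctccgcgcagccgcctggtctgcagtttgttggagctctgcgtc
BMF, first start: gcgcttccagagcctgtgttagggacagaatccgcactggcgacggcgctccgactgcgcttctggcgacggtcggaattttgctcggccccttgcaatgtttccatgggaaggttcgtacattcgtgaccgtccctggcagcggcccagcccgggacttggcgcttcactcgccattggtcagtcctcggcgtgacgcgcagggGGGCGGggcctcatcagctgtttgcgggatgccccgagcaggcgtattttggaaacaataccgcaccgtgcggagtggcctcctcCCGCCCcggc
BMF, second start: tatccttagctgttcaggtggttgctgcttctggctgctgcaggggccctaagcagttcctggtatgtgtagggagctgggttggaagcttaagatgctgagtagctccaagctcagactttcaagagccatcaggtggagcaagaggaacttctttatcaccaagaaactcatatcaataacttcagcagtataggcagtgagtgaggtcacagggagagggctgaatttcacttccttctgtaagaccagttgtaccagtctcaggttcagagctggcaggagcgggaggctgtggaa
BCL2L1: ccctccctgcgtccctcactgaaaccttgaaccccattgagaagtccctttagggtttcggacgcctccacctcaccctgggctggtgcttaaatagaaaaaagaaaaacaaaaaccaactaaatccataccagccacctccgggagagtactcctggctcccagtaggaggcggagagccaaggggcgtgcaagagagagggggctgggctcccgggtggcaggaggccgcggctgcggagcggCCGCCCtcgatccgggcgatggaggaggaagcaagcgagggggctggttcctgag
The BCL2L11 window held 74.7% G or C bases and 39 CpG pairs, and the first BMF window 65% and 31, whereas the second BMF window held 50.3% and 1 CpG pair. Over all 35116 windows the median was 58.7% (quartiles 47% and 68%) with 14 CpG pairs. GGGCGG occurred in 10 of the 14 member windows and in 45% of all windows. Windows of BID and of BAD overlap and share boxes, so the 10 are not separate sites, and they belong to 6 of the 7 genes. GTAAACA occurred in 1 member window, that of BCL2L11, and in 3.42% of all windows. TTTGGCGC and TTTCGCGC, written for E2F, TGANTCA for AP-1 and TGACGTCA for the cAMP response element were each absent from the 14 windows, against 0.652%, 0.515%, 7.71% and 1.85% of all windows. Both strands were searched and GC box matches may overlap one another, and these are matches of letters and not measured sites.

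MCL1 had the highest mean CPM of the 10 members in every set. In U2OS with DMSO it averaged 102 ± 25.7 CPM (SD, n = 4) and each of its libraries lay above every library of BCL2L11, at 46.4 ± 11.8 CPM. BCL2L11, BCL2L1 at 33 ± 4.74 CPM, BID at 28.3 ± 4.19 CPM and BMF at 21.5 ± 5.55 CPM followed, with neighbors in this order overlapping. BCL2L2 (11.1 ± 1.70 CPM), BAD (8.71 ± 0.734), BAK1 (5.65 ± 1.62) and BCL2 (5.13 ± 1.08) were lower, and BIK stood at 0.507 ± 0.123 CPM. In HEK293T with DMSO the order after MCL1 (95.5 ± 11.4 CPM) was BID (33.5 ± 3.66), BCL2L11 (21.5 ± 4.01) and BCL2L2 (14 ± 2.26), and the first 3 of these 4 genes each lay above the next in every library. BCL2L1, the third gene of U2OS cells, was in sixth place there at 10.1 ± 0.887 CPM, and it overlapped its neighbors BCL2 and BAD. Because 1 tag is read per transcript whatever its length, CPM needs no correction for length between genes. How well each 3′ end was captured and assigned was not checked, so orders and ratios between genes are those of tags. Fewer cells of a kind and less RNA per cell cannot be told apart in such bulk libraries.

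**Figure D1:**
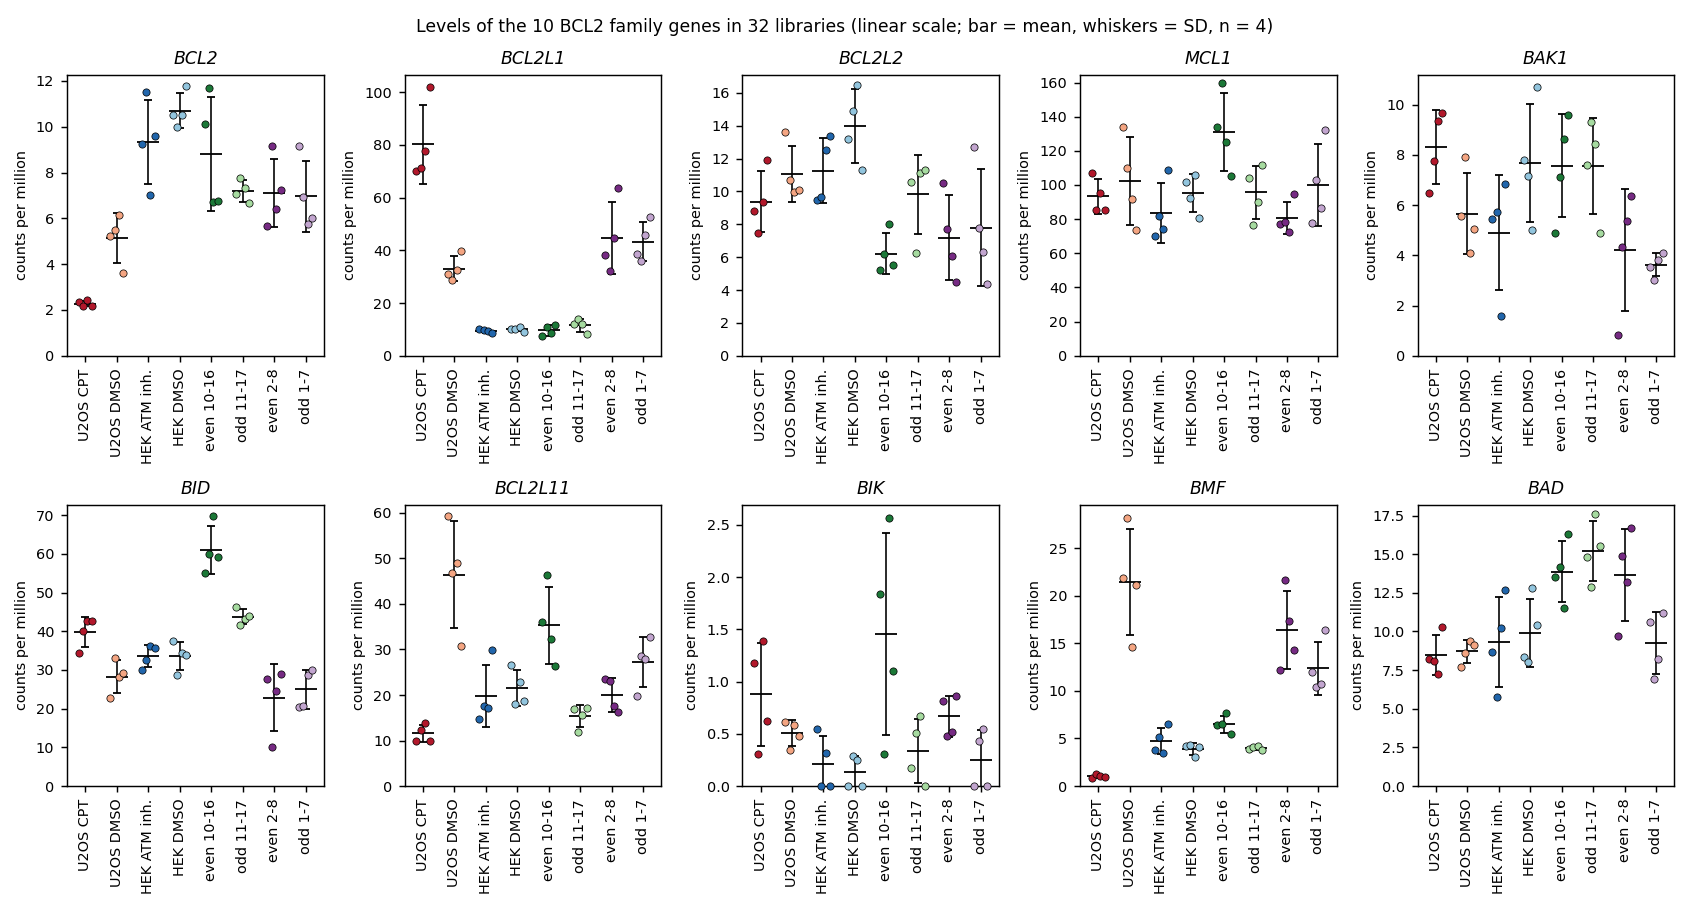
Each panel plots 1 gene, with the 8 sets of libraries along the x axis and CPM on a linear y axis from 0; points are libraries and bars are the mean ± SD (n = 4). BMF with CPT in U2OS sits at 0.883 to 1.24 CPM, and BCL2L1 lies above 28 CPM in all U2OS-like libraries and at or below 14 CPM in all HEK293T-like ones.

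CPT in U2OS cells asked what topoisomerase poisoning does to these transcripts. BCL2L1 rose 2.70-fold, while BMF fell 17.9-fold and BCL2L11 3.53-fold. At an adjusted p under 0.05 (the quasi-likelihood test of edgeR, adjusted over all genes tested by Benjamini-Hochberg), 3 of the 10 members rose and 3 fell, where 16.6% of the 19080 genes tested rose and 15.3% fell. Of the 10 members 3 also passed an absolute log2 fold change of 1, compared with 13.5% of all genes. The median log2 fold change of the members was 0.09 and that of all genes 0.01.

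Among the antiapoptotic members, BCL2L1 (ENSG00000171552, chr20:31664452-31723989) stood at 70.0, 71.3, 77.6 and 102 CPM with CPT and at 31.2, 28.6, 32.5 and 39.7 CPM with DMSO. Every CPT library lay above every DMSO library (log2 fold change 1.44, SE 0.14, adjusted p = 1.73e-09). BCL2 (ENSG00000171791, chr18:63123346-63320128), the founding member of the family, was read at 2.35, 2.17, 2.42 and 2.18 CPM with CPT and at 5.25, 5.51, 6.15 and 3.60 CPM with DMSO. The sets did not overlap, on 7 to 8 counts per library with CPT and 15 to 21 with DMSO, and the log2 fold change was -0.97 (SE 0.32, adjusted p = 0.0181). This call was lost with DESeq2 (adjusted p = 0.0748) and without library 32 (log2 fold change -0.86, adjusted p = 0.063). MCL1, a short-lived protein with a short-lived transcript, stood at 107, 85.6, 95.6 and 85.5 CPM with CPT and at 134, 110, 92 and 73.5 CPM with DMSO, and the 2 sets overlapped (log2 fold change 0.06, SE 0.13, adjusted p = 0.788). BCL2L2 was read at 7.44 to 11.9 CPM with CPT and 9.96 to 13.6 CPM with DMSO (log2 fold change -0.07, SE 0.20, adjusted p = 0.848). BCL2L2 overlaps the readthrough gene BCL2L2-PABPN1, which had 1 count in library 28 and none in the other libraries.

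The effector BAK1 (ENSG00000030110, chr6:33572547-33580293) stood at 6.47, 7.75, 9.35 and 9.67 CPM with CPT and at 5.56, 7.91, 4.10 and 5.05 CPM with DMSO. Library 31 of the DMSO set reached into the CPT range, and the log2 fold change was 0.74 (SE 0.24, adjusted p = 0.0195). DESeq2 gave an adjusted p of 0.064, a single fit of all 32 libraries 0.0551 and scaling by library size alone 0.0783, and leaving out library 28, 29 or 32 gave log2 fold changes of 0.68, 0.66 and 0.62 with adjusted p of 0.0577, 0.0643 and 0.0761.

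Among the BH3-only members, BMF and BCL2L11 fell, BID rose, and BAD and BIK did not pass. BMF (ENSG00000104081, chr15:40087890-40108892), whose product binds the actin-based motor complex until it is released, was read at 0.883, 1.24, 1.04 and 0.936 CPM with CPT and at 21.9, 28.2, 14.6 and 21.1 CPM with DMSO. The CPT libraries held 3 to 4 counts each, 13 in all, and the DMSO libraries 291. The log2 fold change was -4.17 (SE 0.30, adjusted p = 1.09e-12), and the ratio of the summed counts relative to depth, DMSO over CPT, was 20.7 with a 95% counting interval of 11.9 to 39.4. BCL2L11 (ENSG00000153094, chr2:111119378-111168447), which encodes the potent death activator BIM, stood at 10.0, 12.4, 13.9 and 9.98 CPM with CPT and at 59.3, 46.8, 48.9 and 30.8 CPM with DMSO. All CPT libraries lay below all DMSO libraries (log2 fold change -1.82, SE 0.17, adjusted p = 6.65e-10).

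BID (ENSG00000015475, chr22:17734138-17774770), which caspase-8 cleaves to link death receptors to mitochondria, was read at 34.4, 40.0, 42.6 and 42.7 CPM with CPT and at 22.8, 33, 28.1 and 29.1 CPM with DMSO. It was higher in every CPT library (log2 fold change 0.66, SE 0.14, adjusted p = 0.000508). BAD, which survival kinases hold inactive by phosphorylation, stood at 7.27 to 10.3 CPM with CPT and 7.72 to 9.38 CPM with DMSO (log2 fold change 0.12, SE 0.21, adjusted p = 0.716). BIK, an endoplasmic reticulum member, had 4, 1, 4 and 2 counts with CPT and 2, 1, 2 and 2 counts with DMSO, and a difference was not detectable at this depth (log2 fold change 0.88, SE 0.69, adjusted p = 0.365). Scaling by trimmed mean of M values (TMM) placed the log2 fold changes of this comparison 0.17 above those from library size alone. Under the latter scaling MCL1 turned from 0.06 to -0.13, neither passing the test.

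The makeup of the antiapoptotic transcripts differed between CPT and DMSO in U2OS. With CPT the share of BCL2L1 in the summed CPM of the 4 antiapoptotic genes was 37.2, 42.8, 41.9 and 50.6% and with DMSO 17, 18.4, 23.1 and 31.2%. MCL1 took 56.8, 51.4, 51.7 and 42.4% with CPT and 72.8, 71.1, 65.4 and 58.0% with DMSO. Neither gene's shares overlapped between CPT and DMSO, with means of 43.2 ± 5.54% and 22.4 ± 6.43% for BCL2L1 and 50.6 ± 5.98% and 66.8 ± 6.69% for MCL1 (SD, n = 4). The ratio of MCL1 to BCL2L1 ran from 0.838 to 1.53 with CPT and from 1.85 to 4.29 with DMSO. In library 29 BCL2L1 exceeded MCL1, which it did in no other library. These shares derive from the same counts as the fold changes and were given no test.

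**Figure D2:**
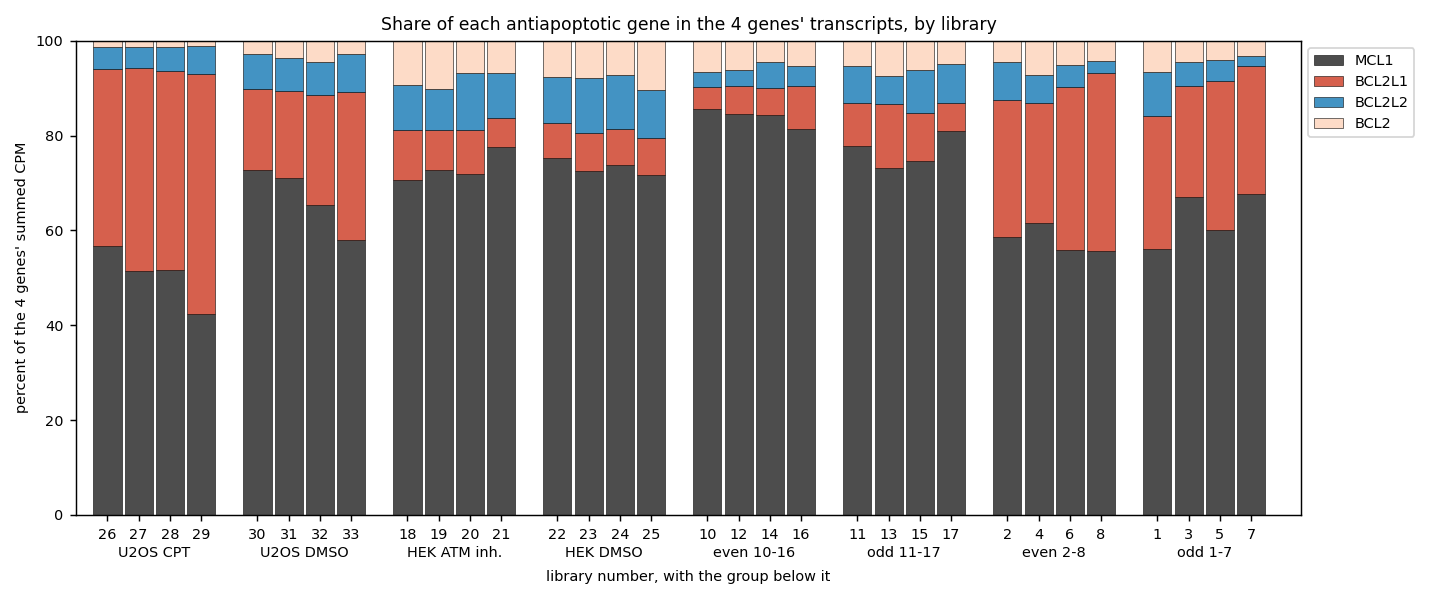
Stacked bars give the percent of the 4 antiapoptotic genes' summed CPM in each of 32 libraries, grouped by set along the x axis. The BCL2L1 segment spans 37.2 to 50.6% with CPT in U2OS and 4.69 to 13.4% in the HEK293T-like libraries.

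Even-numbered libraries 10 to 16, against odd-numbered libraries 11 to 17, gave a second comparison, taken by the selection as CPT in HEK293T. BCL2L11 and BID were higher in the even-numbered libraries, and BCL2L1 gave no call. At an adjusted p under 0.05 by the same edgeR test, 5 of 10 members were higher and 1 lower, beside 17.6% and 17.3% of the 19464 genes tested. BCL2L11 and BIK, 2 of the 10, also passed the fold cutoff, against 14% of all genes. The members' median log2 fold change was 0.33 and that of all genes 0.04.

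BCL2L11 was read at 36.1, 46.3, 32.3 and 26.4 CPM in libraries 10, 12, 14 and 16 and at 17, 11.8, 15.6 and 17.1 CPM in libraries 11, 13, 15 and 17. The sets did not overlap (log2 fold change 1.16, SE 0.17, adjusted p = 1.69e-05). BMF stood at 6.43, 6.48, 7.68 and 5.50 CPM in the even-numbered libraries and at 3.87, 4.06, 4.22 and 3.77 CPM in the odd-numbered ones. These sets too did not overlap, on 21 to 35 and 17 to 24 counts per library (log2 fold change 0.66, SE 0.24, adjusted p = 0.033), but the call was lost with DESeq2 (adjusted p = 0.0728), with no filter on low counts (0.0706) and without library 10, 11, 12, 14 or 17 (log2 fold change 0.58 to 0.66, adjusted p 0.0583 to 0.0891). BID was 55.1, 59.9, 69.7 and 59.3 CPM against 46.3, 41.5, 43.3 and 43.9 CPM, with all even-numbered libraries above all odd-numbered ones (log2 fold change 0.45, SE 0.12, adjusted p = 0.00564). BIK had 6, 1, 8 and 7 counts in the even-numbered libraries and 1, 3, 3 and 0 in the odd-numbered ones. Its sets overlapped at counts near the floor (log2 fold change 1.94, SE 0.68, adjusted p = 0.0299), and the call ended with DESeq2 (adjusted p = 0.0582) and without library 10, 11, 14 or 17 (log2 fold change 1.59 to 1.81, adjusted p 0.0676 to 0.112).

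Of the antiapoptotic genes, MCL1 stood at 134, 160, 125 and 105 CPM in libraries 10, 12, 14 and 16 and at 104, 76.8, 89.8 and 112 CPM in libraries 11, 13, 15 and 17. Libraries 16 and 17 overlapped, with a log2 fold change of 0.43 (SE 0.13, adjusted p = 0.014) that became 0.33 (adjusted p = 0.0752) without library 12. BCL2L2 was 5.21, 6.17, 8 and 5.50 CPM against 10.6, 6.26, 11.1 and 11.3 CPM. Library 13 fell within the even-numbered range (log2 fold change -0.69, SE 0.23, adjusted p = 0.0225), and the call was lost with DESeq2 (adjusted p = 0.0721) and without library 10, 11, 15, 16 or 17 (log2 fold change -0.64 to -0.61, adjusted p 0.0521 to 0.0711). BCL2L1 was 7.35 to 11.6 CPM against 8.20 to 14 CPM (log2 fold change -0.28, SE 0.21, adjusted p = 0.33), BCL2 6.72 to 11.7 against 6.65 to 7.78 CPM (0.23, SE 0.22, adjusted p = 0.447), BAK1 4.90 to 9.59 against 4.88 to 9.31 CPM (-0.01, SE 0.24, adjusted p = 0.986) and BAD 11.5 to 16.3 against 12.9 to 17.6 CPM (-0.13, SE 0.17, adjusted p = 0.604). Read by the deposited labels instead, which set U2OS-like library 1 beside HEK293T-like libraries 11, 13 and 15, U2OS ATM KO against U2OS WT gave a log2 fold change of 1.05 for BCL2L11 (adjusted p = 0.0515) and none of the 10 members passed.

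Even-numbered libraries 2 to 8, against odd-numbered libraries 1 to 7, were taken by the selection as ATM loss in U2OS. Of the 10 members none was higher and BCL2L11 alone was lower at an adjusted p under 0.05, where 6.43% of the 18591 genes tested were higher and 6.56% lower. No member passed the fold cutoff, which 5.24% of all genes did. With edgeR 3 of the 10 had an unadjusted p under 0.05, beside 4724 of the 18591 genes. BCL2L11 was read at 23.5, 23.1, 17.5 and 16.2 CPM in libraries 2, 4, 6 and 8 and at 19.8, 28.6, 27.9 and 32.7 CPM in libraries 1, 3, 5 and 7. Library 1 lay inside the even-numbered range, and the log2 fold change was -0.56 (SE 0.19, adjusted p = 0.04). The call was lost with DESeq2 (adjusted p = 0.105) and with scaling by library size alone (0.0916). It was also lost without library 3, 5, 6, 7 or 8 (log2 fold change -0.57 to -0.45, adjusted p 0.0778 to 0.142). By the deposited labels, HEK293T CPT against all 8 HEK293T DMSO libraries, the value was -0.07 (adjusted p = 0.87). That grouping sets U2OS-like even-numbered libraries 2 to 8 against U2OS-like libraries 3, 5 and 7 together with HEK293T-like ones. Its value therefore mixes cell line with the comparison and is no like-for-like check of the call.

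The other members of that comparison overlapped between the sets. MCL1 was 77.1, 78.4, 72.7 and 94.5 CPM against 77.6, 103, 86.8 and 132 CPM (log2 fold change -0.34, SE 0.15, adjusted p = 0.136). BAD was 9.73, 14.9, 13.2 and 16.7 CPM against 10.6, 6.92, 8.21 and 11.2 CPM (0.59, SE 0.23, adjusted p = 0.0884). BMF was 12.2, 21.7, 17.4 and 14.3 CPM against 12, 10.4, 10.7 and 16.4 CPM (0.37, SE 0.22, adjusted p = 0.3). None of these 3 separated the sets, nor did BCL2L1 at 32.2 to 63.6 CPM against 35.9 to 52.6 CPM (0.03, SE 0.17, adjusted p = 0.943). BAK1 rested on 1 to 37 counts and BIK on 0 to 5 counts per library here, with log2 fold changes of 0.38 (SE 0.35) and 1.15 (SE 0.94). Those of BCL2, BCL2L2 and BID were 0.06, -0.19 and -0.18. Library 2 was the shallowest of all.

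In HEK293T cells the ATM-inhibited libraries 18 to 21 and the DMSO libraries 22 to 25 gave no call. Of the 9 members tested, BIK having too few counts, 0 passed an adjusted p under 0.05 by edgeR and DESeq2 called 0. Over all 18413 genes 0% were higher, 0.00543% lower and 0% past the fold cutoff as well. An unadjusted edgeR p under 0.05 was found for 0 of the 9 members and for 1019 of the 18413 genes. BAK1 had the largest difference, at 5.43, 5.73, 1.60 and 6.85 CPM against 7.78, 7.14, 5.01 and 10.7 CPM (log2 fold change -0.56, SE 0.29, adjusted p = 0.901). Its sets overlapped, with library 20 the lowest on 5 counts. BMF followed with 3.80, 5.12, 3.51 and 6.51 CPM against 4.19, 4.28, 3.01 and 4.15 CPM (0.33, SE 0.29, adjusted p = 0.943). BCL2L11 stood at 14.7, 17.5, 17.2 and 29.8 CPM against 26.6, 18, 22.8 and 18.7 CPM (-0.08, SE 0.17, adjusted p = 0.977), and library 21 was the highest of the 8. BCL2L1 was 8.56 to 10.3 CPM against 8.89 to 11 CPM (-0.02, SE 0.19, adjusted p = 0.995) and MCL1 70.0 to 109 CPM against 80.9 to 106 CPM (-0.14, SE 0.12, adjusted p = 0.943). The log2 fold changes of BCL2, BCL2L2, BID and BAD were -0.13, -0.27, 0.06 and -0.05.

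The cell lines were compared without treatment, first as the labelled U2OS DMSO against HEK293T DMSO libraries. BCL2L1, BMF and BCL2L11 were higher in U2OS and BCL2 was lower. At an adjusted p under 0.05, 4 of the 10 members were higher and 1 lower, beside 32% and 30.1% of the 19739 genes tested, and 3 of 10 passed the fold cutoff, beside 39.9% of genes. BMF was 14.6 to 28.2 CPM in U2OS and 3.01 to 4.28 CPM in HEK293T (log2 fold change 2.67, SE 0.22, adjusted p = 1.62e-12). BCL2L1 was 28.6 to 39.7 CPM and 8.89 to 11 CPM (1.94, SE 0.17, adjusted p = 4.3e-12). BCL2L11 was 30.8 to 59.3 CPM and 18 to 26.6 CPM (1.32, SE 0.16, adjusted p = 8.43e-09). None of these 3 genes overlapped between the lines. BCL2 went the other way without overlap, at 3.60 to 6.15 CPM in U2OS and 10.0 to 11.8 CPM in HEK293T (-0.85, SE 0.23, adjusted p = 0.00158). MCL1 overlapped (0.31, SE 0.13, adjusted p = 0.0352), and its call ended in the fit of all 32 libraries (adjusted p = 0.0637), with scaling by library size alone (0.09, adjusted p = 0.58) and without library 23, 25, 30 or 31 (log2 fold change 0.20 to 0.30, adjusted p 0.0751 to 0.148). BIK had 1 to 2 counts per library in U2OS and 0 to 1 in HEK293T (1.83, SE 0.98, adjusted p = 0.104). The log2 fold changes of BCL2L2, BAK1, BID and BAD were -0.12, -0.22, -0.02 and 0.04, with adjusted p of 0.598, 0.485, 0.931 and 0.875. These libraries are also the references of the U2OS CPT and HEK293T comparisons above.

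Odd-numbered libraries 1 to 7 against odd-numbered libraries 11 to 17, U2OS-like against HEK293T-like by their profiles, gave 4 of 10 members higher and 2 lower, where 33.3% and 31.1% of the 19435 genes tested were, and 3 of 10 past the fold cutoff, where 44.6% were. BCL2L1 was 35.9 to 52.6 CPM against 8.20 to 14 CPM (log2 fold change 2.24, SE 0.18, adjusted p = 1.77e-13). BMF was 10.4 to 16.4 CPM against 3.77 to 4.22 CPM (1.98, SE 0.24, adjusted p = 4.84e-09). BCL2L11 was 19.8 to 32.7 CPM against 11.8 to 17.1 CPM (1.21, SE 0.17, adjusted p = 2.09e-07). None of these 3 overlapped, and the shares of members called lay near or below those of all genes in both comparisons of cell lines. BID was lower at 20.5 to 30 CPM against 41.5 to 46.3 CPM (-0.43, SE 0.15, adjusted p = 0.0149). BAK1 was 3.03 to 4.09 CPM against 4.88 to 9.31 CPM (-0.71, SE 0.29, adjusted p = 0.0327), a call lost with DESeq2 (adjusted p = 0.1) and without library 3, 11, 13 or 15 (log2 fold change -0.70 to -0.56, adjusted p 0.0556 to 0.103). MCL1 (0.43, SE 0.14, adjusted p = 0.00767) lost its call with scaling by library size alone (0.08, adjusted p = 0.675) and without library 7 (0.25, adjusted p = 0.145), and BAD (-0.37, adjusted p = 0.117) passed under that scaling (-0.71, adjusted p = 0.00419) and in the fit of all 32 libraries (-0.48, adjusted p = 0.041). TMM placed log2 fold changes above library-size scaling by 0.22 in the labelled lines and 0.36 in this comparison. BCL2, at 5.75 to 9.17 CPM against 6.65 to 7.78 CPM, was 0.22 under TMM and -0.12 under library size, with no call under either. BCL2L2 (-0.11, SE 0.28, adjusted p = 0.746) and BIK (0.02, SE 1.05, adjusted p = 0.987) gave no call. These libraries are the references of the regrouped comparisons.

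**Figure D3:**
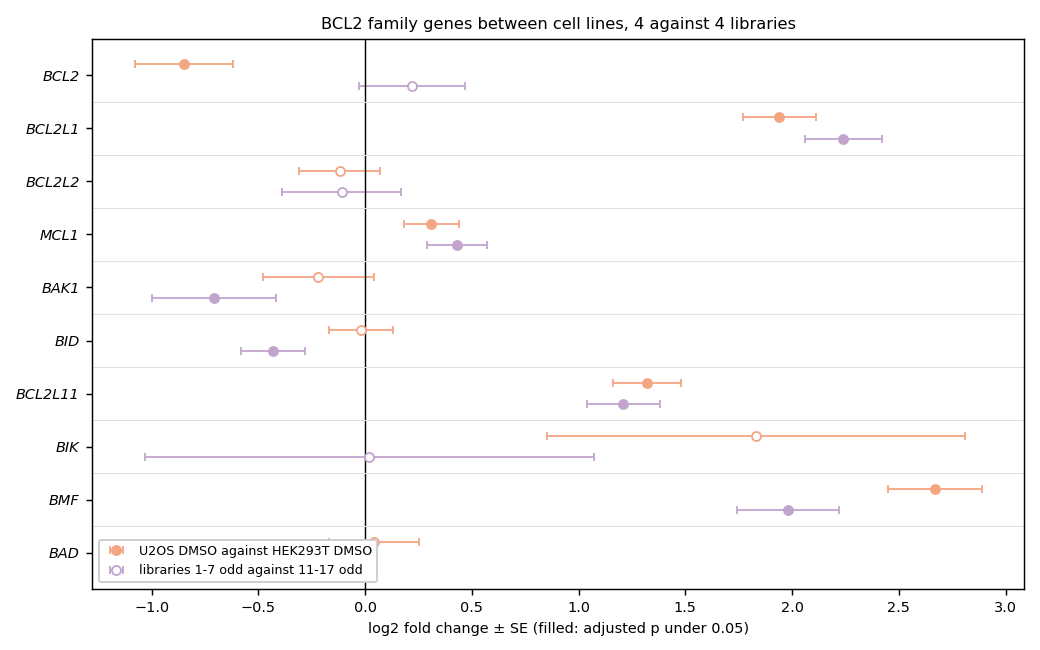
Points give the log2 fold change ± SE of each member between cell lines (x axis, positive where U2OS or the U2OS-like libraries are higher), filled at an adjusted p under 0.05. BMF, BCL2L1 and BCL2L11 lie beyond 1 for both pairs of sets.

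Whether effects differed between comparisons was tested in joint fits of 16 libraries. The effect of CPT in U2OS minus the difference between even-numbered libraries 10 to 16 and odd-numbered 11 to 17 passed an adjusted p under 0.05 in 4 of 10 members, 1 positive and 3 negative, where 9.86% of 22363 genes were positive and 10.5% negative. It was -4.83 for BMF (SE 0.40, adjusted p = 5.01e-13), -2.98 for BCL2L11 (SE 0.25, adjusted p = 9.46e-13), 1.70 for BCL2L1 (SE 0.26, adjusted p = 1.49e-06) and -1.20 for BCL2 (SE 0.38, adjusted p = 0.0203). BMF and BCL2L11 had opposite signs in the 2 comparisons, while BCL2L1 passed in U2OS only and its difference passed here. The BCL2 difference became -1.06 without library 12 (adjusted p = 0.0522) or library 32 (adjusted p = 0.0612). BID, higher in both comparisons, gave a difference of 0.22 (SE 0.19, adjusted p = 0.493).

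The effect of CPT in U2OS minus the difference between even-numbered libraries 2 to 8 and odd-numbered 1 to 7 passed in 4 of 10 members, 2 positive and 2 negative, where 9% of 20539 genes were positive and 8.69% negative. It was -4.54 for BMF (SE 0.40, adjusted p = 2.67e-14), -1.25 for BCL2L11 (SE 0.26, adjusted p = 0.000241), 1.40 for BCL2L1 (SE 0.23, adjusted p = 2.5e-06) and 0.84 for BID (SE 0.25, adjusted p = 0.0121). The BID value fell short with scaling by library size alone (0.63, adjusted p = 0.0789), under which MCL1 passed in the first set of differences (-0.58, adjusted p = 0.0381) and BCL2 in the second (-1.24, adjusted p = 0.0387). Both sets of differences use the same 8 U2OS libraries. Libraries 1 to 17 and 18 to 33 stand in separate runs of sample numbers and no label names a batch, so a batch and the comparison cannot be told apart in these differences. The methods of the study also list a higher CPT dose for U2OS than for HEK293T in the mass spectrometry that shared its cells with the RNA, so dose and cell line cannot be told apart where even-numbered libraries 10 to 16 are read as HEK293T with CPT.

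**Figure D4:**
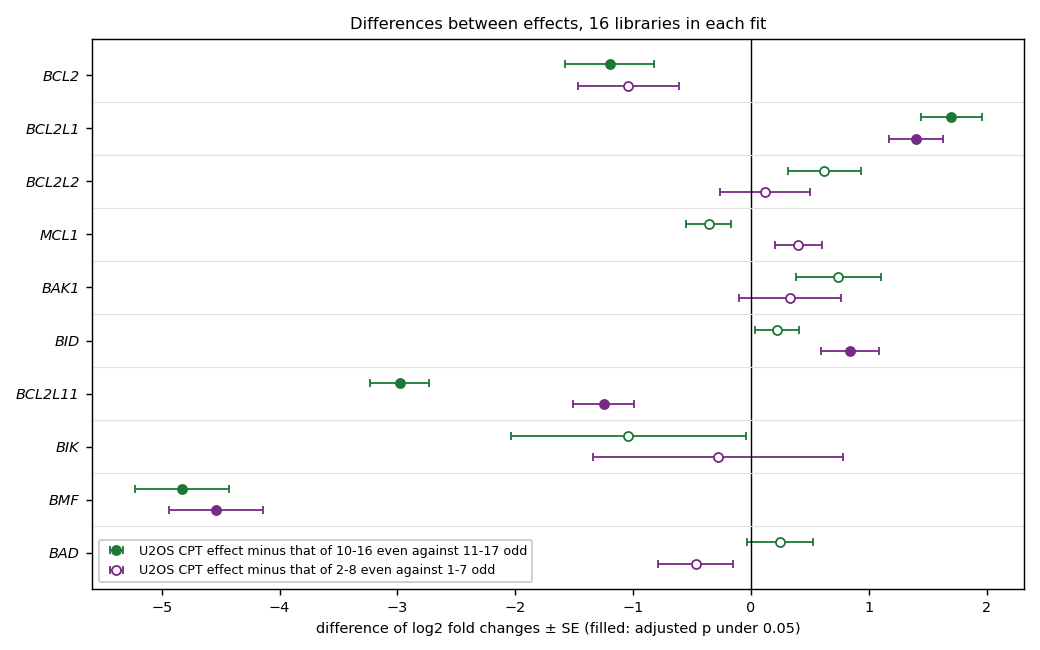
The x axis gives the log2 fold change of CPT in U2OS minus that of each regrouped comparison, ± SE, filled at an adjusted p under 0.05. BMF and BCL2L11 are negative and BCL2L1 positive with filled points in both.

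The other 12 BCL2 family genes included the direct p53 targets BAX, BBC3 and PMAIP1. With CPT in U2OS 10 of the 12 were tested, and 4 rose and 1 fell, beside 16.6% and 15.3% of all genes, with a median log2 fold change of 0.39. BCL2A1, an antiapoptotic gene, was the only one past the fold cutoff, on levels of 0 to 1.77 CPM with CPT and 0 to 0.293 CPM with DMSO that overlapped at the floor (log2 fold change 3.03, SE 1.13, adjusted p = 0.0385). Between even-numbered libraries 10 to 16 and their references 3 of 9 were higher and 2 lower, beside 17.6% and 17.3% of all genes, and none passed the fold cutoff. Between even-numbered libraries 2 to 8 and theirs 2 of 9 were higher and 0 lower, beside 6.43% and 6.56% of all genes. BNIP3, a mitophagy receptor and 1 of the 2, stood at 24.3, 23.6, 22.6 and 22.9 CPM against 9.17, 6.49, 10.4 and 12 CPM (1.22, SE 0.21, adjusted p = 2e-05). In ATM-inhibited HEK293T cells, where 0.00543% of all genes were lower and 0% higher, 0 of 10 passed with edgeR. An unadjusted p under 0.05 was found for 2 of 10, beside 1019 of 18413 genes. Between the labelled lines BOK, a BAK1 relative, stood at 12.3 to 18.6 CPM in U2OS and 0 to 1.14 CPM in HEK293T (4.79, SE 0.36, adjusted p = 1.51e-13), and 2 of 9 were higher and 6 lower in U2OS, where 32% and 30.1% of all genes were. Between the odd-numbered libraries 2 of 9 were higher and 7 lower, where 33.3% and 31.1% of all genes were.

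A list of 18 genes held caspases, genes that act on them or after the mitochondrial membrane opens, and the outer membrane channels VDAC1, VDAC2 and VDAC3. Its caspases include CASP8, whose product cleaves BID, so the list is not one of downstream genes alone. All 18 genes were tested, and 5 rose and 2 fell with CPT in U2OS, beside 16.6% and 15.3% of all genes, with a median log2 fold change of -0.06. BIRC3, an inhibitor of apoptosis, was 23.5, 14.3, 15.2 and 18.7 CPM with CPT and 7.10, 8.95, 11.7 and 9.37 CPM with DMSO (1.11, SE 0.20, adjusted p = 6.3e-05). BIRC5, which encodes survivin and also serves the mitotic spindle, was 49.1, 49.3, 48.1 and 37.7 CPM with CPT and 154, 114, 126 and 92.5 CPM with DMSO (-1.22, SE 0.13, adjusted p = 1.04e-08). Neither overlapped. In even-numbered libraries 10 to 16, 4 were higher and 1 lower, beside 17.6% and 17.3% of all genes. In even-numbered libraries 2 to 8, 0 were higher and 2 lower, beside 6.43% and 6.56%, among them CASP9, the initiator caspase of the mitochondrial pathway, at 1.37 to 3.85 CPM against 2.82 to 6.30 CPM (-1.07, SE 0.37, adjusted p = 0.0426), with overlap. With ATM inhibition in HEK293T 0 of 18 passed by edgeR and 0 had an unadjusted p under 0.05, beside 1019 of 18413 genes. Between the labelled lines 6 were higher and 5 lower in U2OS, beside 32% and 30.1% of all genes, and between the odd-numbered libraries 3 were higher and 8 lower, beside 33.3% and 31.1%.

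Likeness to the members was measured over all 32 libraries as Pearson r of log2(CPM + 1) among 15262 genes. The libraries span U2OS and HEK293T cells and differ in depth, so likeness and a common difference between the lines cannot be told apart. The measure carries no test. The genes most like BMF were PRICKLE1 (r = 0.923), SOX2 (0.888) and GPSM2 (0.887). PRICKLE1, a planar polarity gene, averaged 10.1 CPM with CPT and 83.3 CPM with DMSO in U2OS, and 19 CPM in HEK293T with DMSO. Those most like BCL2L11, added after its values were seen, were SESN3 (0.895), TMSB15A (0.852) and FZD7 (0.843). SESN3, a stress-response gene of the sestrin family, averaged 67.3 CPM with CPT and 174 CPM with DMSO in U2OS, 131 CPM in even-numbered libraries 10 to 16 and 74.0 CPM in odd-numbered libraries 11 to 17. For BIK, on 0 to 8 counts per library, the genes most alike were RNF6 (0.737), TP53INP2 (0.694) and NAT1 (0.694), which in such sparse counts is no finding.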

How the data were processed

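RNA of 32 HEK293T and U2OS libraries was prepared with the QuantSeq 3′ mRNA kit (FWD with UMI). The authors deposited raw counts per gene from Lexogen's pipeline for such libraries, run on BlueBee, and the aligner, build and annotation are not given in the sources used here. The 92 spike-in rows, which held at most 1 count per library, and 5 summary rows (10.9 to 40.6% of counts) were left out, and 0 sample columns were unused. Gene symbols and coordinates came from GENCODE 29 (GRCh38), and 56531 of 60107 genes had a symbol.

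A gene entered a fit if 2 or more of its libraries had over 1 count, and was tested with edgeR 4.0.16 (R 4.3.3; TMM, glmQLFit, glmQLFTest), in fits holding only the libraries of the comparison, at 4 against 4, with Benjamini-Hochberg adjustment over all genes tested. Thresholds were an adjusted p of 0.05 and, where stated, an absolute log2 fold change of 1, as in the study. SE is the absolute log2 fold change over the square root of F. Scripts were tested on simulated data. The methods of the study state independent repeats, which no label ties to single libraries, so p-values measure the spread between libraries. CPM used counts on genes without TMM, and counting intervals (exact, 95%) cover counting error only.

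All 10 members are named in each comparison. Genes of the other lists are named where they passed both thresholds, not all of them for the cell lines, and the 3 genes most alike were taken for the 2 members with the largest called changes. The U2OS (8 genes) and HEK293T (8 genes) markers, the 12 other family genes and the 18 caspase-related and channel genes are hand-made lists. Members and lists were chosen with earlier results of these data known. Alternatives were DESeq2 1.42.0, the likelihood ratio test of edgeR used in the study, RLE scaling, filterByExpr, no filter, no fold cutoff, 1 fit of all libraries, grouping by the labels, leaving out each library and, chosen after the data were seen, scaling by library size alone.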

Additional observations from a re-analysis of the deposited data

Results flagged for a closer look

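Of 80 groups of 4 libraries tested for a value standing apart (10 members in 8 sets), 2 held a lowest library whose gap to the next exceeded Dixon's 95% critical value, and chance flags about 1 in 20 groups. BCL2L2 in odd-numbered library 13 was 6.26 CPM, while libraries 11, 15 and 17 stood at 10.6 to 11.3 CPM. BMF in HEK293T DMSO library 24 was 3.01 CPM on 12 counts, while libraries 22, 23 and 25 stood at 4.15 to 4.28 CPM.

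The effect of CPT in U2OS differed from the difference between even-numbered libraries 10 to 16 and odd-numbered libraries 11 to 17 by -1.20 for BCL2, 1.70 for BCL2L1, -2.98 for BCL2L11 and -4.83 for BMF on the log2 scale. It differed from that between even-numbered libraries 2 to 8 and odd-numbered libraries 1 to 7 by 1.40 for BCL2L1, 0.84 for BID, -1.25 for BCL2L11 and -4.54 for BMF. Adjusted p of these 8 values, from edgeR's interaction test, ran from 2.67e-14 to 0.0203.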

How the results depend on the processing

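Of 1317 values of single members under alternatives, 1240 kept their direction and side of the threshold or, where neither fit passed, moved by less than 1 SE, 57 no longer passed, 4 came to pass, 16 moved by more and 0 changed sign where either fit passed. Members past both thresholds numbered 3 in U2OS CPT, and 6 with no fold cutoff. For even-numbered libraries 10 to 16 the count of 2 was 1 with DESeq2, 1 with filterByExpr, which drops BIK, 6 with no fold cutoff, 0 by the deposited labels and 1 to 2 leaving out a library. For even-numbered libraries 2 to 8 it went from 0 to 1, for the labelled cell lines from 3 to 5 and for the odd-numbered libraries from 3 to 6 with no fold cutoff. The likelihood ratio test, RLE scaling, no filter and the single fit of all libraries gave the same counts as the quasi-likelihood fits in all 6 comparisons. Leaving out every library in turn changed no count in the other 5 comparisons by over 1.5 times. Beyond the losses given with each result the cause was not tested. No paired analysis was run, because no label ties a library of one group to one of another. The study describes independent repeats, and pairing by the order of the library numbers would have been an assumption. Any spread shared within a repeat therefore remains in the SEs and in the overlap between sets. Depth limits BIK (0 to 8 counts per library), BMF with CPT in U2OS (3 to 4) and BAK1 in the shallow library 2 (1 count), where only large differences could be detected.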
